A study of Mus musculus with 8 samples.

Results

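The genes described here are 33 mouse genes of the endoplasmic reticulum (ER) stress response and the linked amino acid response. They were chosen by symbol, for what they are known to do, and with earlier results of these data known. They comprise 3 stress sensors and 16 genes of ER protein folding and degradation under the factors XBP1 and ATF6. The other 14 are genes under the factor ATF4. All 33 had a probe set on the array, out of 18193 named genes, and together they held 75 of the 45037 probe sets that are not array controls. The cells were LB-22, an immortalized line from embryonic mouse kidney. In the Wt1 siRNA group 4 samples received 25 pmol of siRNA against Wt1, and in the control siRNA group 4 samples received the same amount of a scrambled siRNA. Both groups were transfected for 6 h and grown for 48 h, after expansion with interferon gamma at a lower temperature, and without interferon from transfection on. All samples came from this 1 line, whose derivation as a clone or a pool is not given in the labels. Nothing in the labels says that replicates were separate cultures, so the p-values speak only of how far these samples vary, and that variation may be technical.

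The ER folds secreted and membrane proteins, and unfolded proteins that collect there switch on sensors in its membrane. IRE1alpha (Ern1) splices Xbp1 mRNA into the form that encodes an active transcription factor, ATF6 is cut to release another, and both raise chaperones, disulfide isomerases and the machinery that discards misfolded proteins. PERK (Eif2ak3) phosphorylates the initiation factor eIF2alpha, which slows most translation but favours that of ATF4, and ATF4 in turn raises genes for amino acid supply, redox balance and stress-induced death. Lack of amino acids reaches the same factor through another kinase, so the ATF4 genes respond to both. Much of the sensors' activity lies in splicing, cutting and phosphorylation, which signals per probe set do not measure.

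Total RNA was read on 8 Affymetrix Mouse 430_2 arrays, 1 per sample, as a linear signal per probe set. The number of arrays limits the precision. The targeted gene Wt1, a transcription factor needed for kidney formation, was at 20.5% of its control level in the Wt1 siRNA group. Its signals were 1679, 1531, 1317 and 1914 on the Wt1 siRNA arrays, against 8397, 7129, 8197 and 7423 on the control siRNA arrays. Correlations of log2 signals between arrays, across tested genes, ran between 0.977 and 0.991 within groups and between 0.940 and 0.960 across them. Presence was read against the highest signal of the bacterial control probe sets (227.2). On all 8 arrays 5 of 5 epithelial, 1 of 5 endothelial and 2 of 5 leukocyte markers were above it, and the leukocyte markers Ptprc, Aif1 and Itgam were above it on none. Of the embryonic kidney markers 5 of the 9 with a probe set were above it on all 8 arrays, while Sall1, Foxd1 and Cited1 were above it on none. The summed signal of the kidney list, which includes Wt1, ran between 4954 and 6029 on the Wt1 siRNA arrays and between 10209 and 11489 on the control siRNA arrays. Without Wt1 the other 8 genes of that list summed to between 3637 and 4115 on the Wt1 siRNA arrays, against 2523 to 3092 on the control siRNA arrays, and Osr1 among them was higher (0.75, limma adjusted p = 0.00502). For the 5 epithelial markers it ran between 13305 and 13880 on the Wt1 siRNA arrays, against 15704 to 18083 on the control siRNA arrays. Krt8 was higher and Epcam, Krt18 and Crb3 were lower. Cdh1, too dim to be tested, ran from 708 to 920 on the Wt1 siRNA arrays and from 332 to 504 on the control siRNA arrays. Of the 5 endothelial markers only Kdr was tested, and it was lower. Their summed signal ran between 1697 and 2043 on the Wt1 siRNA arrays, against 2072 to 2890 on the control siRNA arrays. For the 5 leukocyte markers it ran between 3101 and 3272 on the Wt1 siRNA arrays, against 2306 to 3297 on the control siRNA arrays. Within that list Cd68 was higher (0.99, limma adjusted p = 8.66e-06) and Csf1r lower (-0.76, adjusted p = 0.00125). For 8 interferon response genes it ran between 31079 and 36563 on the Wt1 siRNA arrays, against 34194 to 42453 on the control siRNA arrays, with Oas2 higher (1.67, limma adjusted p = 2.63e-06) and Ifit1, Ifit3 and Ifih1 lower. The part of these lists in the results was not tested. In bulk RNA, fewer cells of a type and less RNA per cell cannot be told apart.

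Each gene was read from its brightest probe set by mean log2 signal, and the brighter share of 0.5 of all named genes (9096) was tested with limma. A gene counted as higher or lower in the Wt1 siRNA group where its adjusted p was under 0.05 over all 9096. Of the 33 genes, 31 were bright enough to be tested, and 18 of these passed, 10 higher and 8 lower. That is 58.1% of those tested, beside 37.3% of all tested genes (18.8% higher and 18.5% lower). The genes were chosen with earlier results of these data known, so this comparison is not independent of the data. The median log2 difference was 0.04 over the 31 genes and 0.02 over all tested genes, and the median size of the difference without its sign was 0.26 and 0.21. The groups did not overlap for 15 of the 31, beside 36.3% of all tested genes. No kept probe set of the 31 differed by 1 or more on the log2 scale, which 2.53% of all tested genes did. Both arms held genes that were higher and genes that were lower, and neither moved one way.

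**Figure D1:**
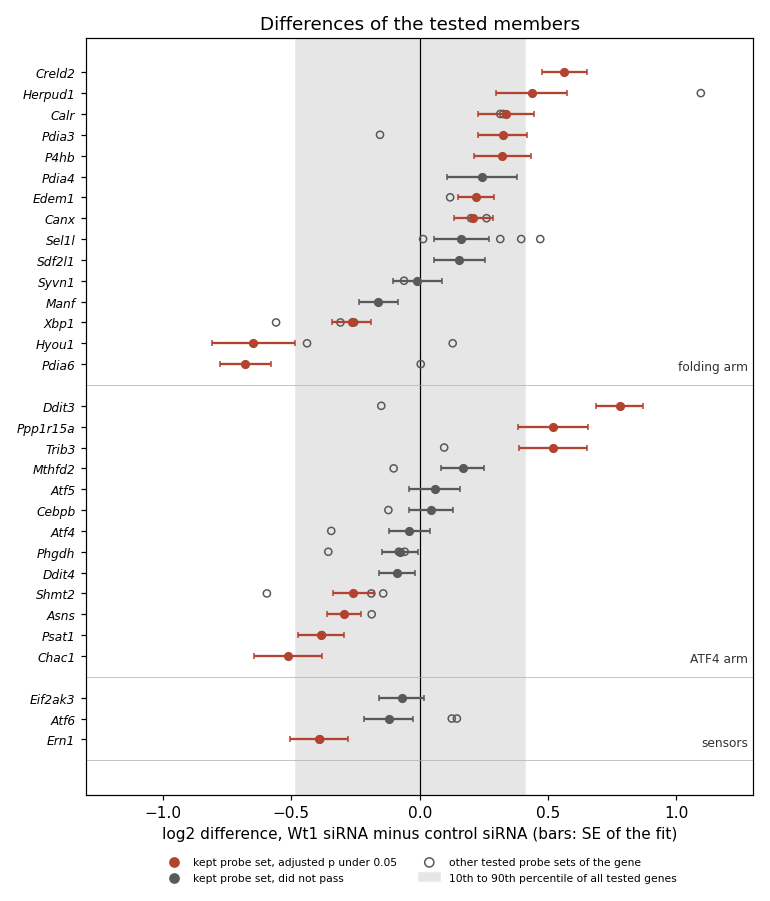
Log2 difference in signal, Wt1 siRNA minus control siRNA, for the 31 tested genes in 3 groups, with bars for the SE of the fit and open circles for other tested probe sets of the same gene. The grey band spans the 10th to 90th percentile of all tested genes (-0.48 to 0.41). Pdia6 and Hyou1 lie lowest, at -0.68 and -0.65, Ddit3 lies highest among the kept probe sets at 0.78, and the other Herpud1 probe set lies at 1.09.

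Of the 3 sensors, Ern1 was lower in the Wt1 siRNA group and the transcripts of Eif2ak3 and Atf6 did not pass. Ern1, which encodes the kinase and nuclease that splices Xbp1, had signals of 1856, 1794, 1494 and 1837 on the Wt1 siRNA arrays, against 2715, 2023, 2209 and 2230.3 on the control siRNA arrays. Every Wt1 siRNA array was below every control array. The difference was -0.39 ± 0.11 on the log2 scale (SE; limma adjusted p = 0.0154), or 0.762 of the control level. It was -0.28 and did not pass once each array was centred on its median (adjusted p = 0.172). The other tested Ern1 probe set was also at -0.39 and did not pass (adjusted p = 0.415 in limma's fit over all probe sets). Eif2ak3 had 2797, 2869, 2928 and 2455 on the Wt1 siRNA arrays and 3021, 2688, 2972 and 2909 on the control siRNA arrays, with overlapping groups and a difference of -0.07 ± 0.09 (SE; limma adjusted p = 0.548). Atf6 had 2348, 2429, 2347 and 2436 on the Wt1 siRNA arrays and 2704, 2546, 2937 and 2259 on the control siRNA arrays. Its highest and lowest control arrays lay on either side of the Wt1 siRNA arrays, and the difference was -0.12 ± 0.09 (SE; limma adjusted p = 0.328). The other tested Atf6 probe sets were at 0.12 and 0.14 and did not pass (adjusted p = 0.605 and 0.519 in limma's fit over all probe sets).

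The folding arm had 7 genes higher and 3 lower among 15 tested, with a median difference of 0.21, and 5 that did not pass. Thus 66.7% of the arm passed, beside 37.3% of all tested genes, in a list not chosen independently of the data. Groups were apart for 7 of the 15, 5 higher and 2 lower, beside 36.3% of all tested genes. The counts were 5 higher and 2 lower after centring arrays on their medians, and 6 and 4 after quantile normalization. There Canx was lost and Manf was the added lower one. The higher count moved with single arrays and was 1 without control replicate 4, 3 without control replicate 1, and 4 without control replicate 2 or without Wt1 siRNA replicate 2 or 4. The genes that were higher covered lectin chaperones (Calr, Canx), isomerases (Pdia3, P4hb), Creld2 and the degradation genes Herpud1 and Edem1, and those that were lower were Xbp1, the chaperone Hyou1 and the isomerase Pdia6. Genes of the arm are known to be switched on through short promoter elements. The best known is the ER stress element (ERSE), searched here as CCAAT, any 9 bases and CCACG on both strands. The related ERSE-II was searched as ATTGG, any base and CCACG, on both strands. The windows were those of RefSeq on GRCm38.p6, 250 bases before to 50 after the annotated start, and 30 of the 33 genes had one (not Atf6, Hyou1 and Manf). ERSE was found in 6 of 14 folding arm windows (42.9%: Calr, Canx, Creld2, Derl3, Pdia6 and Syvn1), against 0.119% of all 32851 windows. ERSE-II was found in Herpud1 alone of the arm, against 0.0365% of all windows. The core TGACGTG, searched on both strands, was in none of the members' windows and in 2.01% of all. A match is a description of the letters and not a site shown to be bound.

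The windows of the 5 folding arm genes that passed the test and hold ERSE or ERSE-II are printed because they set a shared element beside differences of both signs. Each is given 5′ to 3′ on the gene's strand from RefSeq, with ERSE or ERSE-II in capitals, in the letters of the gene's own strand. In Herpud1 the capitals further upstream mark an amino acid response match, described with the ATF4 genes. The places are Pdia6 at chr12:17266339-17266638 (plus strand), Creld2 at chr15:88819396-88819695 (plus strand), Herpud1 at chr8:94386179-94386478 (plus strand), Calr at chr8:84846882-84847181 (minus strand) and Canx at chr11:50325624-50325923 (minus strand).
Pdia6: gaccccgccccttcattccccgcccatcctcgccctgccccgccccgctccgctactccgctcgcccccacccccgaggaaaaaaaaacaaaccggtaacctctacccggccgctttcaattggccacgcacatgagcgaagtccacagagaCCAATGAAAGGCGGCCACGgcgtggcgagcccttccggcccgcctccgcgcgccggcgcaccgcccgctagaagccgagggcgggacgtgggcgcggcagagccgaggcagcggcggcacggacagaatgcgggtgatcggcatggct
Creld2: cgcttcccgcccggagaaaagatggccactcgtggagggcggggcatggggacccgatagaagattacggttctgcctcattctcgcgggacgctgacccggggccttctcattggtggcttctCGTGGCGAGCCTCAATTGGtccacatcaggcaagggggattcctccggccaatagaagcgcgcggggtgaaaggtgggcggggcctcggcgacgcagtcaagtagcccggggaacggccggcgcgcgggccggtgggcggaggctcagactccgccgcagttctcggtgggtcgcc
Herpud1: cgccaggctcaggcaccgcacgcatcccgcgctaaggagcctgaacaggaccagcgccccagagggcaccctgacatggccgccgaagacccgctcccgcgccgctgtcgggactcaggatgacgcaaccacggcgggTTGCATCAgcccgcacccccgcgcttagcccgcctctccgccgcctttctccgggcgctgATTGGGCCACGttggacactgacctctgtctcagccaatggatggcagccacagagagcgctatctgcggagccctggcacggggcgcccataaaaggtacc
Calr: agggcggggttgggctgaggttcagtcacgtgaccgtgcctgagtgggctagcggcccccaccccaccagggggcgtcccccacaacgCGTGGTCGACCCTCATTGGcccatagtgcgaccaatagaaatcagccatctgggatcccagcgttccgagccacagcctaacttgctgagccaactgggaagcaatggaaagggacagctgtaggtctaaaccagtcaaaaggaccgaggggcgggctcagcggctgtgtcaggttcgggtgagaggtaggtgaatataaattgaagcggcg
Canx: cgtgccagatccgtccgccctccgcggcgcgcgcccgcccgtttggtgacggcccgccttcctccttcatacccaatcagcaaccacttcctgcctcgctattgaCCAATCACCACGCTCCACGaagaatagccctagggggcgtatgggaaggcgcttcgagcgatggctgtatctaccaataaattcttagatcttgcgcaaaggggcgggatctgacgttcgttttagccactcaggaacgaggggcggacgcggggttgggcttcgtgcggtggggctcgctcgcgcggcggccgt

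Xbp1, the transcription factor of the arm, was lower, with signals of 11667, 10999.8, 11916 and 9941 on the Wt1 siRNA arrays, against 12753, 14142, 13945 and 12627 on the control siRNA arrays. The groups did not overlap, and the difference was -0.27 ± 0.08 (SE; limma adjusted p = 0.015). Its other 3 probe sets also had negative differences, of -0.26, -0.31 and -0.56, and the one at -0.31 passed in a fit over 22518 probe sets (adjusted p = 0.0207). The files do not say which probe sets read the spliced form. The call on the kept probe set, which can match several transcripts, was lost under median centring of the arrays (-0.16, adjusted p = 0.453) and with such probe sets left out (-0.26, adjusted p = 0.196).

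Among chaperones, Hyou1, a large chaperone of the ER lumen, was lower in the Wt1 siRNA group. Its signals were 6307, 8013, 9629.5 and 7806 on the Wt1 siRNA arrays, against 8358, 14478, 14017 and 13527 on the control siRNA arrays. Control array 1 lay far below the other 3 control arrays and within the Wt1 siRNA range, so the groups overlapped. The difference was -0.65 ± 0.16 (SE; limma adjusted p = 0.00677), and without control replicate 1 it was -0.83 (adjusted p = 0.000216). Of its other probe sets one was at -0.44 (adjusted p = 0.0635 in limma's fit over all probe sets) and one at 0.13, neither past the threshold there. The kept Hyou1 probe set can match several transcripts. With such probe sets left out the gene was at -0.44 and passed (adjusted p = 0.0352). The mean over the gene's probe sets was at -0.32 and did not pass (adjusted p = 0.123).

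Calr and Canx encode calreticulin and calnexin, lectin chaperones that hold glycoproteins during folding. Calr had signals of 41429.9, 41851, 39796 and 56203 on the Wt1 siRNA arrays, against 31639, 34921, 39349 and 35058 on the control siRNA arrays. The groups were apart by a narrow margin between Wt1 siRNA array 3 and control array 3, and Wt1 siRNA array 4 stood well above the rest. Its difference was 0.34 ± 0.11 (SE; limma adjusted p = 0.0272), with 0.33 and 0.31 in its other probe sets, neither of which passed. Canx had 31140.2, 33995, 33086 and 33066 on the Wt1 siRNA arrays, against 26036, 28836, 31682 and 27276 on the control siRNA arrays. Here control array 3 reached into the Wt1 siRNA range, and the difference was 0.21 ± 0.08 (SE; limma adjusted p = 0.0474), with 0.26 and 0.20 in the other probe sets. The Calr call was lost without control replicate 1, 2 or 4 (adjusted p = 0.0645, 0.0598 and 0.0619), with no filter (0.0614) and as the mean over probe sets (0.0709). The Canx call was lost when any single array other than control replicate 3 was left out (adjusted p from 0.0574 to 0.131). It was also lost under quantile normalization (0.10, adjusted p = 0.145), no filter (0.0989) and no intensity trend (0.0696). Under median centring the Canx difference rose to 0.32 and the call was lost (adjusted p = 0.0912). Sdf2l1, a partner of the chaperone BiP, ran from 4289.9 to 5258 on the Wt1 siRNA arrays and from 3852 to 5188 on the control siRNA arrays (0.15 ± 0.10, SE; limma adjusted p = 0.242). Manf, a secreted factor made under ER stress, ran from 12464 to 15230.4 on the Wt1 siRNA arrays and from 14909.5 to 16059 on the control siRNA arrays. It did not pass (-0.16 ± 0.07, SE; limma adjusted p = 0.105), but was lower under quantile normalization (-0.22, adjusted p = 0.011).

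The disulfide isomerases, which make and rearrange the disulfide bonds of folding proteins, divided in direction. Pdia6 had signals of 8832, 8507, 8998 and 6869 on the Wt1 siRNA arrays, against 11679.5, 14118, 14791 and 12558 on the control siRNA arrays. All Wt1 siRNA arrays were below all control arrays, at 0.624 of the control level. The difference was -0.68 ± 0.10 (SE; limma adjusted p = 0.00016). The other tested Pdia6 probe set was at 0.004 (adjusted p = 0.992 in limma's fit over all probe sets). The mean over both was at -0.34 and passed (adjusted p = 0.0136). Pdia3, which acts on glycoproteins together with the lectin chaperones, had 40126, 40488, 39868 and 49815 on the Wt1 siRNA arrays, against 30855, 38022, 35424 and 31689.8 on the control siRNA arrays. Its groups were apart, with Wt1 siRNA array 4 far above the other 3, and the difference was 0.32 ± 0.10 (SE; limma adjusted p = 0.0171). P4hb, also a subunit of the enzyme that hydroxylates collagen prolines, had 48684, 48267, 47597 and 65582 on the Wt1 siRNA arrays, against 37064, 43171, 46496 and 40475 on the control siRNA arrays. Again the groups were apart and Wt1 siRNA array 4 was the high one (0.32 ± 0.11, SE; limma adjusted p = 0.035). Pdia4 ran from 3384 to 5171 on the Wt1 siRNA arrays and from 2893 to 3982 on the control siRNA arrays and did not pass (0.24 ± 0.14, SE; limma adjusted p = 0.182). Creld2, an ER protein with isomerase activity that is raised by ER stress, had 6993, 7398, 7113 and 5912 on the Wt1 siRNA arrays, against 4852, 4612, 4935 and 4133 on the control siRNA arrays. Every Wt1 siRNA array was above every control array, at 1.48 times the control level, with a difference of 0.56 ± 0.09 (SE; limma adjusted p = 0.00027). The other tested Pdia3 probe set was at -0.15 (adjusted p = 0.39), and the mean over its probe sets was at 0.08 and did not pass (adjusted p = 0.399). The Pdia3 call was also lost without control replicate 4 (adjusted p = 0.0605). That of P4hb was lost without Wt1 siRNA replicate 4 (0.21, adjusted p = 0.0611) or without control replicate 1, 2 or 4 (adjusted p = 0.08, 0.058 and 0.0868), and with no filter (0.0783), no intensity trend (0.0539) or the mean over probe sets (0.0516).

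Calr, Canx, Pdia3 and P4hb belong with Phgdh to the tested genes whose mean signal was above 25000, a level chosen after the values were seen. The 294 genes above it had a median difference of 0.20, and 91 of them were higher and 9 lower. Their median deviation from the control mean was 0.30 on Wt1 siRNA array 4, between 0.12 and 0.16 on the other Wt1 siRNA arrays and between -0.16 and 0.11 on the control siRNA arrays. Under quantile normalization, which gives all arrays the same distribution, the differences were 0.16 for Pdia3, 0.12 for P4hb and 0.17 for Calr, all 3 past the threshold. Canx was at 0.10 there and did not pass (limma adjusted p = 0.145). The part of array brightness in these 4 results was not tested further.

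**Figure D2:**
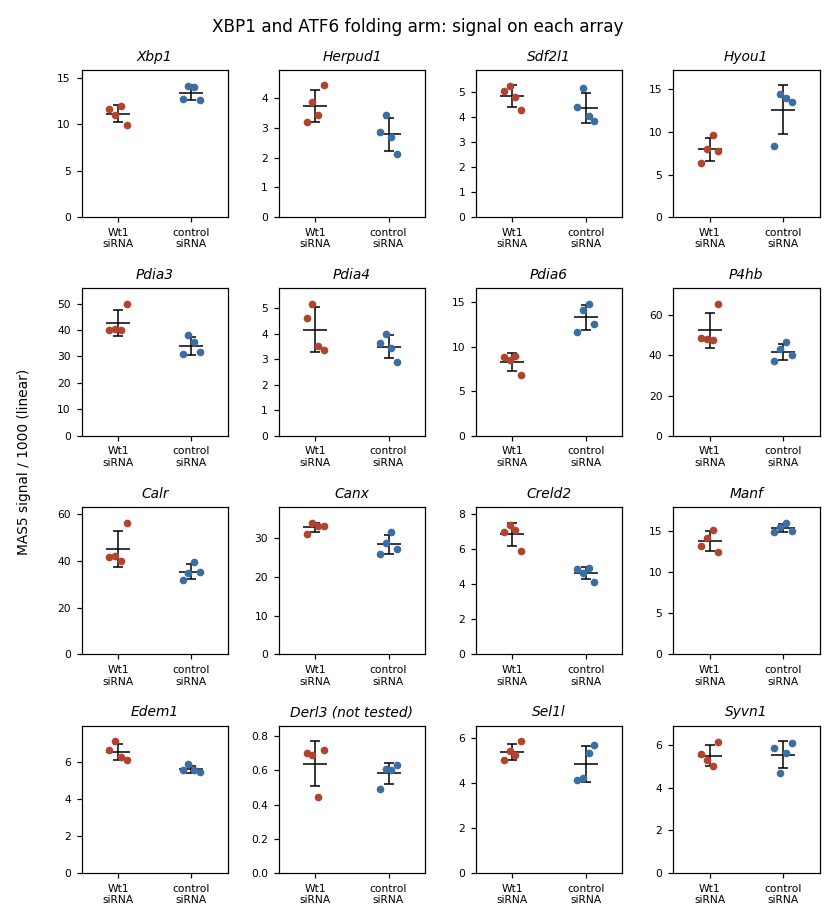
Signal on each array (vertical axes, MAS5 signal divided by 1000, linear, from 0) for the 16 folding arm genes, with Wt1 siRNA left of control siRNA, points for the 4 arrays of a group in replicate order and bars for the mean and SD. Pdia6 and Creld2 show groups that are apart, the lowest Hyou1 control point is replicate 1, and the highest points of Pdia3, P4hb and Calr are Wt1 siRNA replicate 4.

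Degradation genes of the arm pull misfolded proteins back out of the ER and mark them for the proteasome. Herpud1, an ER membrane protein of this machinery, was higher, with signals of 3207, 3862, 3433 and 4423 on the Wt1 siRNA arrays, against 2852, 3436, 2704 and 2114 on the control siRNA arrays. The groups overlapped through control array 2, and the difference was 0.44 ± 0.14 (SE; limma adjusted p = 0.0239). Its other probe set had 3848, 4545, 4116 and 3027 on the Wt1 siRNA arrays, against 1967, 1727, 1751 and 1760.3 on the control siRNA arrays. There the groups were far apart, at 3884 ± 639 in the Wt1 siRNA group and 1801 ± 112 in the control siRNA group (SD, n = 4 each), 2.14 times the control level, with a difference of 1.09 ± 0.12 (SE; adjusted p = 8.09e-05 in limma's fit over all probe sets). The probe sets thus gave the same sign and differed in size. The call on the kept probe set was lost without Wt1 siRNA replicate 2 or 4 or control replicate 4 (adjusted p = 0.0574, 0.0617 and 0.0755).

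Edem1, which takes mannose-trimmed glycoproteins out of the folding cycle, had 6634, 7106, 6270.0 and 6122 on the Wt1 siRNA arrays, against 5556, 5861, 5572 and 5433 on the control siRNA arrays. Its groups were apart, with a small difference of 0.22 ± 0.07 (SE; limma adjusted p = 0.0276). That call was lost without Wt1 siRNA replicate 1 or 2 or control replicate 1 or 4 (adjusted p = 0.0727, 0.0997, 0.0542 and 0.079). It was also lost as the mean over probe sets (0.17, adjusted p = 0.0853). Under median centring the Edem1 difference rose to 0.33 and the call was lost (adjusted p = 0.0915). Sel1l and Syvn1 encode the adaptor and the ubiquitin ligase of the main degradation complex. Sel1l ran from 5001 to 5832 on the Wt1 siRNA arrays and from 4117 to 5672 on the control siRNA arrays (0.16 ± 0.11, SE; limma adjusted p = 0.243), and its other 4 probe sets had differences of 0.01 to 0.47, none past the threshold. Syvn1 ran from 5034 to 6166 on the Wt1 siRNA arrays and from 4683 to 6091 on the control siRNA arrays, with a difference of -0.01 ± 0.09 (SE; limma adjusted p = 0.951). Derl3, a Derlin of the same machinery, was below the level for testing, with 701, 689.7, 445 and 721 on the Wt1 siRNA arrays and 493, 608, 604 and 629 on the control siRNA arrays, which overlap.

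The ATF4 arm had 3 genes higher and 4 lower among 13 tested, with a median difference of -0.04, and 6 that did not pass. Thus 53.8% of the arm passed, beside 37.3% of all tested genes, again in a list not chosen independently of the data. Groups were apart for 7 of the 13, the same 7 that passed, beside 36.3% of all tested genes. The 3 that were higher, Ddit3, Trib3 and Ppp1r15a, encode regulators of the stress response. The 4 that were lower, Asns, Psat1, Shmt2 and Chac1, encode enzymes of amino acid and glutathione metabolism. ATF4 binds the amino acid response element, searched here as TGATGNAA on both strands, which 3.97% of all windows hold. It was found in 4 of 16 ATF4 arm windows (25%), those of Asns, Chac1, Nupr1 and Trib3, and in the folding arm in Herpud1. The 16 windows belong to 14 genes, and ERSE was in none of them.

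The windows of the 3 ATF4 arm genes that passed the test and hold the element are printed. Trib3 was higher and Chac1 and Asns were lower with a match to the same pattern. The matches differ at its free base, and that of Trib3 lies downstream of the start. The windows are read 5′ to 3′ on the gene's strand from RefSeq on GRCm38.p6, with the match in capitals, in the letters of the gene's own strand. The places are Trib3 at chr2:152344011-152344310 (minus strand), Chac1 at chr2:119350992-119351291 (plus strand) and Asns at chr6:7693160-7693459 (minus strand).
Trib3: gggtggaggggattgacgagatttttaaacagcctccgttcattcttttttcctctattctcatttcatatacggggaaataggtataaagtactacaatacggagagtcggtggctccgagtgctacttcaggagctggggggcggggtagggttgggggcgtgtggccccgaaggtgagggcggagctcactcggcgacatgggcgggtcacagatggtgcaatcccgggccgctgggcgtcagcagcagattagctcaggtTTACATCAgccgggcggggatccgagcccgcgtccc
Chac1: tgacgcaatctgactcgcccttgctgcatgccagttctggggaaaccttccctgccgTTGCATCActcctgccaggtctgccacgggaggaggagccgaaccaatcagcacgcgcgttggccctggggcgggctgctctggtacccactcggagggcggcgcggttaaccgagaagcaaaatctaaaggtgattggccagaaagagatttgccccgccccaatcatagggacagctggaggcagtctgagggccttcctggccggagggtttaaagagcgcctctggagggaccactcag
Asns: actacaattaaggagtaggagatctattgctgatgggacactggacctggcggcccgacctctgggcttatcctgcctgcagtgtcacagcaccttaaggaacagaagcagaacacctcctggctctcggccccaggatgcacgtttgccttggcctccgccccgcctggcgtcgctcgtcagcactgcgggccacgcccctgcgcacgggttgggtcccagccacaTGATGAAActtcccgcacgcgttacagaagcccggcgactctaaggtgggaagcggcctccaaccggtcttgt

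**Figure D3:**
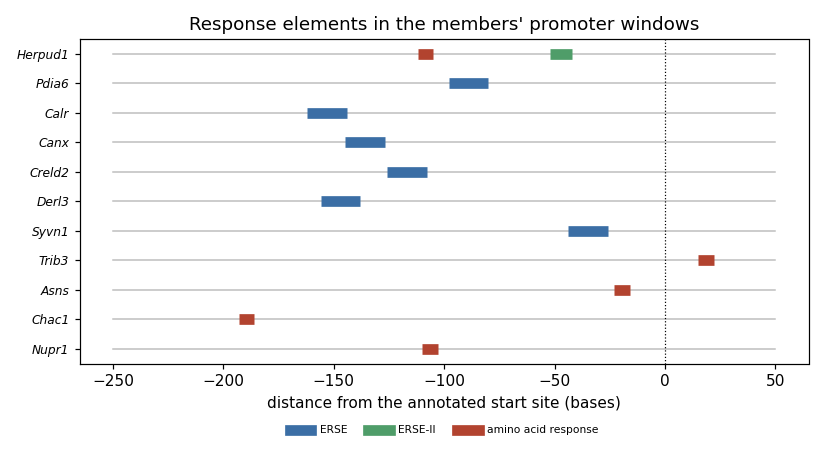
Places of ERSE, ERSE-II and amino acid response matches in the promoter windows of the members that hold one (horizontal axis, distance in bases from the annotated start, marked by the dotted line). The ERSE matches lie upstream of the start, between -162 and -26, and the Trib3 match lies downstream of it, from 15 to 22.

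Transcription factors of the arm came out as 1 that was higher and 3 that did not pass. Ddit3, which encodes CHOP, a factor linked to death under lasting stress, had signals of 4287, 4489.5, 4748 and 3938 on the Wt1 siRNA arrays, against 2275, 2455, 2844 and 2617 on the control siRNA arrays. All Wt1 siRNA arrays were above all control arrays, at 1.72 times the control level, with a difference of 0.78 ± 0.09 (SE; limma adjusted p = 3.07e-05). Its other probe set had 430 ± 169 in the Wt1 siRNA group and 452 ± 116 in the control siRNA group (SD, n = 4 each) and did not pass (-0.15, adjusted p = 0.788). With the mean taken over the 2 probe sets the Ddit3 difference was 0.31 and did not pass (adjusted p = 0.212). Atf4 itself had 12559, 10415, 11320.0 and 12857 on the Wt1 siRNA arrays and 11828, 12295, 11270.4 and 12998 on the control siRNA arrays. These overlap fully, with a difference of -0.04 ± 0.08 (SE; limma adjusted p = 0.723). Another Atf4 probe set, whose probes may also match other transcripts, was lower, with 4828, 4903, 4929 and 3676 on the Wt1 siRNA arrays, against 5811, 6066, 5918 and 5347 on the control siRNA arrays (-0.34 ± 0.10, SE; limma adjusted p = 0.0292). So the Atf4 probe sets differed in whether they passed, and ATF4 protein was not measured. Atf5, a relative of ATF4, ran from 2724 to 3377 on the Wt1 siRNA arrays and from 2665 to 3397 on the control siRNA arrays (0.06 ± 0.10, SE; limma adjusted p = 0.683). Cebpb, a partner of CHOP, ran from 11183 to 14705 on the Wt1 siRNA arrays and from 11310.2 to 12680.2 on the control siRNA arrays (0.04 ± 0.09, SE; limma adjusted p = 0.726).

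Feedback and damage genes of the arm gave calls in both directions. Trib3, a pseudokinase induced by ATF4 and CHOP, had 951, 1295, 1092 and 1103 on the Wt1 siRNA arrays, against 862, 765, 744 and 719 on the control siRNA arrays. Its groups were apart (0.52 ± 0.13, SE; limma adjusted p = 0.00753), while its second probe set had a difference of 0.10 and did not pass (adjusted p = 0.662). The mean over both Trib3 probe sets did not pass (0.31, adjusted p = 0.087). Ppp1r15a encodes GADD34, which brings a phosphatase to eIF2alpha and so restores translation. It had 1964, 2072, 1639 and 1744 on the Wt1 siRNA arrays, against 1242, 1439, 1522 and 1014 on the control siRNA arrays, again with groups apart, 1.43 times the control level and a difference of 0.52 ± 0.14 (SE; limma adjusted p = 0.00892). Chac1, an enzyme that breaks down glutathione, had 886, 1188, 1212 and 1120.0 on the Wt1 siRNA arrays, against 1711, 1399, 1423 and 1740.1 on the control siRNA arrays. It was thus lower with groups apart, at 0.701 of the control level (-0.51 ± 0.13, SE; limma adjusted p = 0.00789). Ddit4, an inhibitor of mTORC1, ran from 11382 to 13071 on the Wt1 siRNA arrays and from 12449 to 14185 on the control siRNA arrays (-0.09 ± 0.07, SE; limma adjusted p = 0.347). Nupr1, a stress-induced nuclear protein, was below the level for testing, with 569.5, 406, 470.0 and 335 on the Wt1 siRNA arrays and 494, 878, 654 and 407 on the control siRNA arrays, which overlap.

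The 5 enzymes of amino acid and one-carbon supply were 3 that were lower, all 3 lost under median centring, and 2 that did not pass. Asns, which makes asparagine, had 9986, 9609.8, 9884 and 9069.6 on the Wt1 siRNA arrays, against 11249, 12264, 12213 and 11614 on the control siRNA arrays. The groups did not overlap (-0.30 ± 0.07, SE; limma adjusted p = 0.00333). Psat1, an aminotransferase of serine synthesis, had 14823, 13548, 17190.3 and 12875 on the Wt1 siRNA arrays, against 17422, 19089, 19757 and 19719 on the control siRNA arrays. Wt1 siRNA array 3 came close to control array 1 without crossing it (-0.39 ± 0.09, SE; limma adjusted p = 0.00455), and the other Psat1 probe set was also lower (-0.38, adjusted p = 0.0131). Shmt2, which splits serine into glycine in mitochondria and passes on a one-carbon unit, had 8981, 8162, 8505 and 7107 on the Wt1 siRNA arrays, against 10407, 9796, 9601 and 9299 on the control siRNA arrays. Its groups were also apart (-0.26 ± 0.08, SE; limma adjusted p = 0.0213), and the call was lost without control replicate 1 (-0.23, adjusted p = 0.0574) and with probe sets that can match several transcripts left out (-0.14, adjusted p = 0.25). Phgdh, the entry enzyme of serine synthesis, ran from 26393 to 28272 on the Wt1 siRNA arrays and from 26691 to 31002 on the control siRNA arrays and did not pass (-0.08 ± 0.07, SE; limma adjusted p = 0.418). Another of its probe sets was lower (-0.36, adjusted p = 0.00955 in limma's fit over all probe sets). The remaining ones were at -0.08 and -0.06 and did not pass in that fit (adjusted p = 0.415 and 0.566). All Phgdh probe sets can match several transcripts. Mthfd2, a mitochondrial folate enzyme, ran from 4411 to 5071 on the Wt1 siRNA arrays and from 3799 to 4657 on the control siRNA arrays (0.17 ± 0.08, SE; limma adjusted p = 0.131).

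The lower calls of the ATF4 arm depended on how arrays were scaled. Centring each array on its median shifted all differences by 0.11, and none of the 4 then passed. Their differences became -0.40 for Chac1, -0.28 for Psat1, -0.19 for Asns and -0.15 for Shmt2, with adjusted p of 0.062, 0.167, 0.349 and 0.474. The 3 higher calls passed under that scaling as well, and quantile normalization gave 3 higher and 5 lower, with Phgdh the added one (-0.19, adjusted p = 0.00376). Over all tested genes median centring gave 1584 higher and 785 lower, against 1708 and 1687 as deposited. Their median difference was 0.12 after centring, against 0.02 as deposited. A lost call did not always mean a smaller difference. In the folding arm Edem1 rose to 0.33 and Canx to 0.32 under centring, and neither passed (limma adjusted p = 0.0915 and 0.0912). The medians used were those over all probe sets, dim ones included. They ran from 282 to 337 on the Wt1 siRNA arrays and from 279 to 346 on the control siRNA arrays. The highest bacterial control signal was 227.2.

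**Figure D4:**
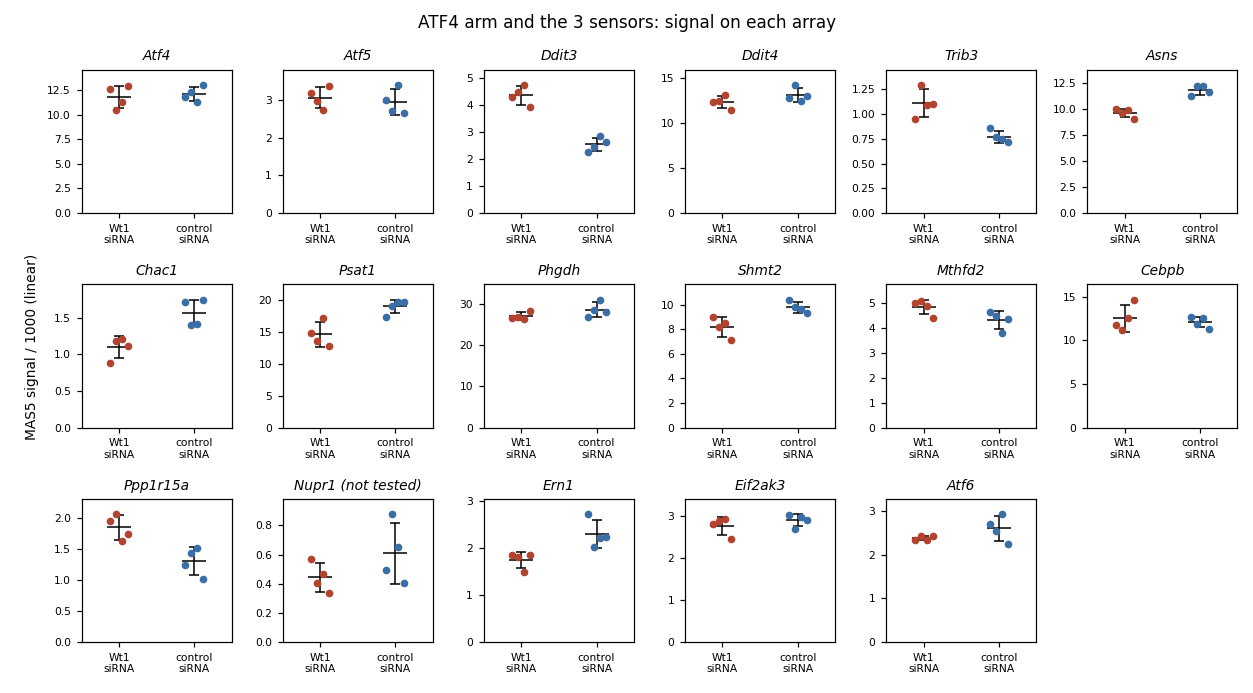
Signal on each array (vertical axes, MAS5 signal divided by 1000, linear, from 0) for the 14 ATF4 arm genes and the 3 sensors, with Wt1 siRNA left of control siRNA, points for the 4 arrays of a group in replicate order and bars for the mean and SD. Ddit3, Trib3 and Ppp1r15a are higher with groups apart, Asns, Chac1, Psat1, Shmt2 and Ern1 are lower with groups apart, and the 2 groups overlap for Atf4.

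**Figure D5:**
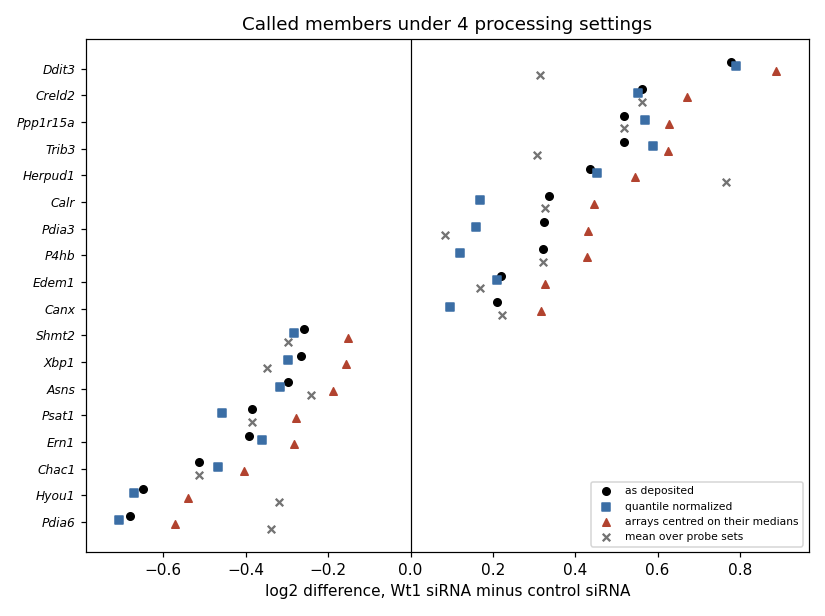
Log2 difference, Wt1 siRNA minus control siRNA (horizontal axis), of the 18 genes that passed, as deposited, after quantile normalization, after centring arrays on their medians, and as a mean over probe sets (Ern1 fell below the level for testing there). No gene changes sign, and in the mean over probe sets Ddit3 lies at 0.31, Pdia6 at -0.34, Hyou1 at -0.32 and Pdia3 at 0.08, each nearer to 0 than as deposited.

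All 75 probe sets of the 33 genes were also examined, of which 68 were bright enough for the fit over 22518 probe sets. In that fit 9 were higher and 12 lower, 30.9% of those tested, beside 23.1% of all probe sets. For the 18 genes that passed, 21 further probe sets were tested. The sign opposed that of the kept probe set in 4 of them, in Hyou1, Pdia3, Pdia6 and Ddit3, and none of these 4 passed. The one of Pdia6 lay at 0.004. Of the 33 genes 9 had a single probe set and no such comparison.

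Other genes of the same pathways also held both directions. These lists, like the members, are counted without a test of the list, and their values are log2 differences with the SE of the fit. Among 25 further ER folding genes 8 were higher and 4 lower, 48.0% of the list beside 37.3% of all tested genes. Their median difference was 0.16, and after median centring 9 were higher and 1 lower. Dnajb9, a co-chaperone of BiP, was higher at 0.77 ± 0.07, and Ero1a, an oxidase that recharges the isomerases, at 0.67 ± 0.07, while the prolyl isomerase Fkbp2 was lower at -0.68 ± 0.09 (SE; limma adjusted p = 3.85e-06, 7.06e-06 and 8.85e-05). Hspa5 encodes BiP, the central ER chaperone, and is given although it fell outside the rule for named genes, a choice made after its values were seen. It had 49847, 53419, 49272 and 47496 on the Wt1 siRNA arrays, against 36858, 43858, 45388 and 40423 on the control siRNA arrays, with groups apart (0.27 ± 0.08, SE; limma adjusted p = 0.0226). Its mean signal also lay above 25000, where the median difference of all tested genes was 0.20.

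Among 19 further degradation genes 5 were higher and 4 lower (47.4% of the list, beside 37.3% of all tested genes, median 0.05). Edem2 and Edem3, relatives of Edem1, were lower at -0.83 ± 0.10 and -0.57 ± 0.08, opposite in sign to Edem1 itself. Edem2 had 1431, 1706, 1374 and 1782 on the Wt1 siRNA arrays, against 2811, 2810.1, 2735 and 2795 on the control siRNA arrays. Ufd1, a cofactor of the extraction ATPase VCP, was lower at -0.75 ± 0.09. Among 14 further regulators 4 were higher and 3 lower (50.0% of the list, median -0.02), and after median centring 4 and 1. Mbtps2, a protease that cuts ATF6, was higher at 0.62 ± 0.09, and Wfs1 was lower at -0.53 ± 0.09 (SE). The death effector Bak1 was higher at 0.63 ± 0.21 with overlapping groups (SE; limma adjusted p = 0.0334).

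Among 15 genes of eIF2 control 3 were higher and none lower (median 0.03), 20.0% of the list beside 37.3% of all tested genes. They were Eif2ak2, the kinase PKR (0.60 ± 0.10), Eif4ebp1, a brake on cap-dependent translation (0.41 ± 0.08), and the subunit gene Eif2s3x (0.26 ± 0.07, SE). Among 20 further ATF4 targets and partners 7 were higher and 3 lower (50.0% of the list, median 0.20). Slc7a5, a transporter of large amino acids, was higher at 0.70 ± 0.10 and Nfil3 at 0.80 ± 0.15, while Cebpg, a dimer partner of ATF4, was lower at -0.69 ± 0.10 (SE). Atf3, a factor often raised by ATF4, is also given after its values were seen and did not pass (-0.24 ± 0.16, SE; limma adjusted p = 0.264). Of 19 aminoacyl-tRNA synthetases, which load tRNAs, 1 was higher and 5 were lower (median -0.06), 31.6% of the list and also under the share of all tested genes. The lower ones were led by Tars at -0.60 ± 0.10, Wars at -0.58 ± 0.07 and Mars1 at -0.48 ± 0.08. After median centring 2 synthetases were lower, and after quantile normalization 8. Of 10 further serine and one-carbon genes 2 were higher and 2 lower (40.0% of the list, median 0.02). Mthfd1l and Shmt1 were higher at 0.48 ± 0.09 and 0.44 ± 0.11, and Dld was lower at -0.64 ± 0.09 (SE).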

How the data were processed

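Total RNA of 8 samples was measured on Affymetrix Mouse 430_2 arrays. The deposited table gives 1 linear intensity for every probe set and array, and MAS5 produced it, per the submitters' processing notes. Its version was not given in the sources used here. The trimmed mean (2% left out at each end) was 1500.0 on every array, so the values share a scaling. No 2 arrays shared more than 42 identical values.

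Groups came from the sample titles and the siRNA label. Probe sets were named from the platform annotation, and symbols were brought up to date by Entrez gene ID. Among 45037 probe sets, 34945 had 1 symbol, 932 had several, and 9160 had none and were unnamed here. For each gene the brightest probe set by mean log2 signal was kept. The brighter share of 0.5 of the genes entered the tests, down to a mean signal of 664. Tested genes had a median within-group SD of 0.142 (log2) and untested ones 0.667. The number of arrays limits the precision. Differences of log2 values, Wt1 siRNA minus control siRNA, were fitted with limma 3.58.1 in R 4.3.3 (lmFit, and eBayes with an intensity trend), two-sided, and adjusted by Benjamini-Hochberg over all genes or probe sets tested. The scripts were tested on simulated data. A further fit took all probe sets. Errors after a difference are the SE of the fit. The smallest exact permutation p for 4 against 4 arrays is 0.0286.

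The members and the further gene lists were chosen with earlier results of these data known. All members, Wt1 and, of each list, up to 3 genes past the threshold with the largest differences were named. Promoter windows are from RefSeq on GRCm38.p6. No build is given for the array values, so no other coordinates are printed. The alternatives tried were a block for the replicate number, quantile normalization, centring on medians, 16 or 64 added, no filter or a share of 0.25, no intensity trend, the mean over probe sets, leaving out probe sets with the suffix _s_at or _x_at, and leaving out each array. Python 3.11.15 with matplotlib 3.10.9 drew the figures.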

Additional observations from a re-analysis of the deposited data

Results flagged for a closer look

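Within each group of 4 arrays, 68 sets of values (the members' kept probe sets and Wt1) were examined for an array far from the others by Dixon's test, which sets the gap to the nearest array against the whole range. Chance gives about 1 such array in 20 sets, and 7 were found. Wt1 siRNA replicate 4 stood far above the other 3 arrays of its group for Pdia3 (49815.1), P4hb (65581.6) and Calr (56203.1). Without it the differences were 0.25, 0.21 and 0.22 on the log2 scale, with limma adjusted p of 0.0319, 0.0611 and 0.043. Wt1 siRNA replicate 3 was far below its group for Ern1 (1493.9), where the adjusted p stayed under the threshold when any single array was left out (0.0133 to 0.0494). For Hyou1, control siRNA replicate 1 was far below its group (8357.7). Derl3, which was too dim to be tested, had such a low array in both groups, Wt1 siRNA replicate 3 (445.0) and control siRNA replicate 1 (492.9).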

How the results depend on the processing

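Of the 18 members that passed, Pdia6, Creld2 and Ppp1r15a passed under every alternative that gave a value, and none of the 18 changed sign. With the arrays centred on their medians, 785 of all tested genes were lower, no ATF4 arm gene was lower and no sensor passed. With no filter 4 folding arm genes were higher. With a share of 0.25, which tests fewer genes, 1095 genes were higher and 775 lower, 1 of 9 tested ATF4 arm genes was higher and no sensor was tested. With the mean over probe sets 4 folding arm genes (Herpud1, Canx, Creld2 and Pdia4) and 1 ATF4 arm gene were higher. Of these Pdia4 had not passed as deposited. With that mean 0 sensors passed, Ern1 not being tested there. Leaving out each array in turn gave 1 to 7 folding arm genes higher, with 1 left without control siRNA replicate 4; this choice removes an array from each fit. The cause of the other changes was not tested.

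Sign changes were seen only in members that had not passed. Median centring turned Eif2ak3 to 0.037, Syvn1 to 0.099, Atf4 to 0.068, Ddit4 to 0.020 and Phgdh to 0.031. The mean over probe sets turned Atf6 to 0.049 and Cebpb to -0.040. Leaving out an array gave -0.091 to 0.036 for Syvn1, -0.084 to 0.017 for Atf4 and -0.037 to 0.095 for Cebpb.

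With the replicate number as a block 1702 genes were higher and 1712 lower, and the folding arm kept 7 higher and 3 lower, with Pdia4 gained (adjusted p = 0.0476) and Canx lost (0.0613). The ATF4 arm had 3 higher and 4 lower and the sensors 1. Deviations of samples with the same number correlated at 0.08, -0.08, 0.08 and 0.04. These correlations cannot tell whether samples with the same number were handled together.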
